A study of Mus musculus with 11 samples.

Results

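Chromatin accessibility of naive CD4 T cells with the highest signal of a T cell receptor reporter and no surface Ly6C (population D) was compared with that of cells with intermediate reporter signal that carry Ly6C (population B). The comparison used 6 of the 11 libraries of the series, 3 of D and 3 of B, and all 45508 listed peaks. Libraries 1, 2 and 3 of each population came from the same 3 mice, so D and B were compared within mouse. Population D was Nur77-GFP hi and Ly6C-, and population B was Nur77-GFP int and Ly6C+. Both sorts took CD4+, CD44lo cells that were negative for the FoxP3-RFP reporter, out of spleen plus lymph node cells of untreated animals. All mice, in every population, carried the Tg(Nr4a1-EGFP)GY139Gsat transgene together with the Foxp3tm1Flv targeted mutation on the C57/BL6 background. Their age is not given in the sources used here. Populations A (Nur77-GFP low, Ly6C+, 2 libraries) and C (Nur77-GFP intermediate, Ly6C-, 3 libraries) entered the same statistical model and are given where they place a value between or outside D and B. Because D and B differ both in reporter level and in Ly6C, the 2 sort markers cannot be told apart in this comparison.

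Naive T cells receive weak signals through the T cell receptor from self peptides on MHC molecules, called basal or tonic signals, without becoming activated. Nur77, encoded by Nr4a1, is an immediate early nuclear receptor that is switched on by such signals, and GFP made under control of Nr4a1 sequences marks cells that received stronger ones. Ly6C is a surface protein of the Ly6 family, encoded in mice by Ly6c1 and Ly6c2, that is known to be low on naive CD4 T cells with stronger self-reactivity. ATAC-seq uses the transposase Tn5, which cuts and tags open DNA, so reads pile up at accessible promoters and enhancers.

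Sorted batches of 10000 cells were tagmented for 1 h at 37 °C. Values are deposited as rppm, reads relative to a scaling total, and the totals were 2597176, 6875972 and 36859228 reads in D and 8980067, 8736371 and 25061502 reads in B. A peak at 10 rppm thus rested on 26.0 to 369 reads in D and on 87.4 to 251 reads in B, with population D replicate 1 the shallowest of all. Population B replicate 1 stood apart at the highest peak of the table (chromosome 1, 24612851 to 24616135, mm10), where it had 826 rppm, against 3391 to 6405 rppm in the other libraries. Of the CD4 T cell markers, 9 of 9 had listed peaks, and their summed level was 2142 to 2241 rppm in D and 2273 to 2345 rppm in B. In a bulk library, a change in the share of cells with an open site and a change in how open the site is per cell cannot be told apart.

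A few promoter windows show what the start sites with the clearest differences look like. Each is the 250 bases just upstream of the RefSeq start (GRCm38.p6, the mm10 coordinates), written 5′ to 3′ on the strand of the gene, and capitals mark matches to the 15 motifs searched. Itgb8 (chr12:119238277-119238526, minus strand), Prr5l (chr2:101797708-101797957, minus strand) and Sh3gl3 (chr7:82174546-82174795, plus strand) lie under 3 of the 5 promoter peaks with the largest increases in D. Tmem37 (chr1:120073781-120074030, minus strand) lies under a promoter peak that was lower in D. The Itgb8 window held no match. Prr5l held an EGR and a RUNX match, Sh3gl3 an NFAT, an E protein and an EGR match, in this order, and Tmem37 an AP-1 match.
Itgb8: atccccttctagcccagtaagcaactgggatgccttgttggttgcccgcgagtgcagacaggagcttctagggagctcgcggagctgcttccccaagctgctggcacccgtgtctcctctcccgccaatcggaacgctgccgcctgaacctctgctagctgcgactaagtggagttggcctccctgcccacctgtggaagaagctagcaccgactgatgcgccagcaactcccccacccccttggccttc
Prr5l: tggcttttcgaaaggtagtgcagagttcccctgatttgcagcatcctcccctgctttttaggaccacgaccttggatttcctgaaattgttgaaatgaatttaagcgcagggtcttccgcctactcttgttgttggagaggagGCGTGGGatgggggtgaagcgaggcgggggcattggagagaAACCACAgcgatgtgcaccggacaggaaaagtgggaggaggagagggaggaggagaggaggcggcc
Sh3gl3: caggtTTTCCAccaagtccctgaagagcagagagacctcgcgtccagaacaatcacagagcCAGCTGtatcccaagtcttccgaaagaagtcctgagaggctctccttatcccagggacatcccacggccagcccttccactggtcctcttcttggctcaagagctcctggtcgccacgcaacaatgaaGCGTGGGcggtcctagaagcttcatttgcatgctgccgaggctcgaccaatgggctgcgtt
Tmem37: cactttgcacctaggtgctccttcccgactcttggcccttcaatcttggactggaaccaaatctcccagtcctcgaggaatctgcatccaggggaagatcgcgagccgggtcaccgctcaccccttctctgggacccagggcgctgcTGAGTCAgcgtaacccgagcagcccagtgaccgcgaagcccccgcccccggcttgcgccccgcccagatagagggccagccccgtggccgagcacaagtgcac

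D differed from B at 8361 of 45508 peaks, which is 18.4% (limma with the mouse as a block on log2(rppm + 1), two-sided, Benjamini-Hochberg adjusted p below 0.05). Of these peaks, 4535 (9.97% of all) were higher in D, near 2877 genes, and 3826 (8.41%) were lower in D, near 2298 genes. "Called" below means past that threshold, and all log2 differences are D minus B on the log2(rppm + 1) scale, which understates the ratio at low peaks. Without the mouse block, 5006 peaks (11%) were called, 3260 higher (7.16%) and 1746 lower (3.84%), and all of these were among the calls with the block. The lower count depended on single libraries of B, being 2484, 2255 and 2322 without population B replicates 1, 2 and 3. It was 1787 without mouse 2 and 1522 without mouse 3, and the higher count was 2493 without mouse 3.

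The gains in D were larger than the losses. Peaks called higher had a median log2 difference of 0.74, and the change was 2-fold or more on this scale at 1401 (30.9%). Peaks called lower had a median of -0.51, with 134 (3.50%) at 2-fold or more. The peaks that gained were weak ones in B, with median levels of 8.76 rppm in D and 4.25 rppm in B. Those that lost were stronger, with medians of 9.20 rppm in D and 13.9 rppm in B. The sign was the same in all 3 mice at 99.2% of the higher and 99.3% of the lower peaks, and the libraries of D and B did not overlap at 92.3% and 83.9% of them. Over all peaks the median difference was -0.04, and the libraries did not overlap at 25.9%. Each of the 45508 listed peaks had 1 rppm or more in 3 or more libraries, so peaks near 0 in A and B had to be higher elsewhere.

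**Figure D1:**
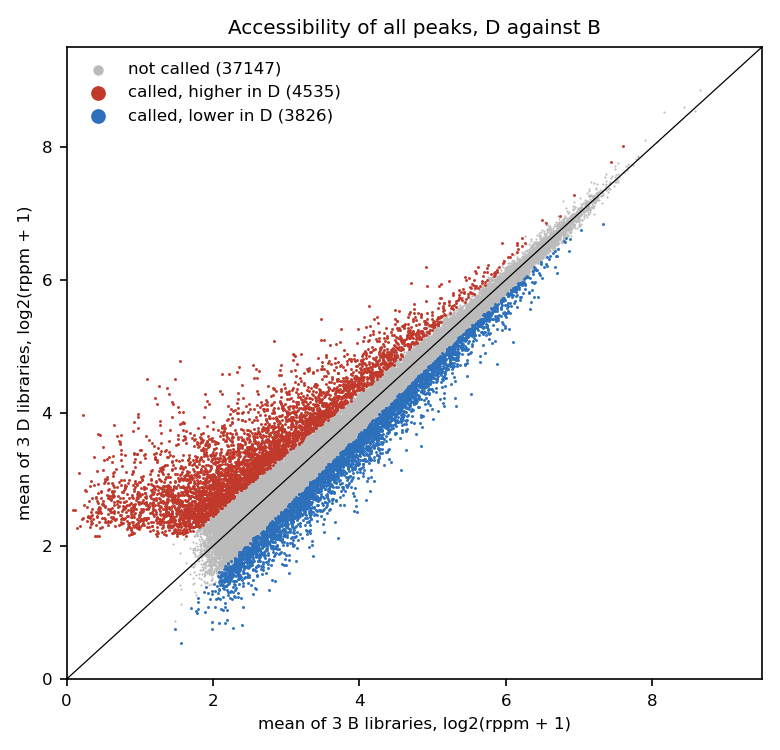
Each point is 1 of 45508 peaks, with the mean of the 3 D libraries on the vertical axis and the mean of the 3 B libraries on the horizontal axis, both as log2(rppm + 1). Red points are the 4535 peaks called higher in D, blue points the 3826 called lower, and the red points reach much farther from the diagonal, mainly where B was low.

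The genes used for the sort and gates were examined next. Nr4a1, the gene behind the reporter, had 3 of 8 peaks called higher and none lower. Its leading peak (chromosome 15, 101253642 to 101254547, 12.8 kb from the start site) measured 59.3, 58.0 and 63.1 rppm in D, against 47.2, 41.3 and 48.5 rppm in B. The 3 D libraries lay above the 3 B libraries by a small step (log2 difference 0.39 ± 0.08 (SE), limma adjusted p 0.00237), and the call was lost without mouse 2. Reads from the Nr4a1-EGFP transgene cannot be told apart from those of the endogenous Nr4a1 locus where the transgene holds the same sequence.

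Ly6c1 had 5 of 7 peaks called lower in D. The leading one (chromosome 15, 75033381 to 75034218, 14.9 kb from the start site, intergenic) measured 5.0, 5.96 and 5.40 rppm in D, against 16.4, 16.8 and 15.1 rppm in B. The D libraries lay far below the B libraries, with no overlap (log2 difference -1.41 ± 0.11, limma adjusted p 2.66e-07). Ly6c2 had 5 peaks with a median log2 difference of -0.0007, and none was called in either direction. Its peak with the smallest p (chromosome 15, 75089459 to 75089868) did not overlap between the groups. The same was true of 11.9% of all peaks not called. That peak measured 10.8, 10.8 and 11.1 rppm in D, against 13.8, 13.3 and 14.1 rppm in B, with an adjusted p just above the threshold (log2 difference -0.31 ± 0.11, limma adjusted p 0.0527).

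Foxp3 had 1 peak, in an intron (chromosome X, 7586144 to 7587064), which measured 3.85, 5.67 and 5.48 rppm in D, against 4.34, 3.21 and 4.43 rppm in B. The groups overlapped there (log2 difference 0.26 ± 0.18, limma adjusted p 0.372), and no difference was detectable. Cd44, the adhesion receptor used to exclude memory cells, had 4 peaks called higher and 3 called lower among 15. The leading one, 80.1 kb from the start site (chromosome 2, 102981356 to 102982154), measured 7.70, 7.71 and 5.72 rppm in D, against 0.445, 0.572 and 0.399 rppm in B (log2 difference 2.44 ± 0.17, limma adjusted p 9.46e-08). It was close to 0 in all B libraries and clearly above them in all D libraries. At Cd4, 1 of 3 peaks was lower, with 4.74 ± 0.449 rppm in D and 7.80 ± 1.38 rppm in B (SD, n = 3 each; log2 difference -0.61 ± 0.14, limma adjusted p 0.00487), a call lost when the libraries were thinned to equal reads and without population B replicate 2, mouse 2 or mouse 3. The single peak of Cd8a, a coreceptor gene that CD4 cells silence, had 8.39 ± 1.01 rppm in D and 5.80 ± 1.01 rppm in B (SD, n = 3 each; log2 difference 0.47 ± 0.13, limma adjusted p 0.0186). That call was lost without the mouse block (adjusted p 0.0854) and in 7 other alternatives.

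The largest gains in D were at distal peaks near genes of many kinds. The 10 were taken among called peaks with 5 rppm or more on average in the higher group, no overlap between groups and the same sign in each mouse. Ppp2r5c, a regulatory subunit of the phosphatase PP2A, led with an intergenic peak 65.5 kb from its start (chromosome 12, 110381120 to 110382306). It measured 15.4, 13.2 and 15.5 rppm in D, against 0.111, 0.229 and 0.160 rppm in B (log2 difference 3.75 ± 0.16, limma adjusted p 5.61e-09). In B this site was at the level of a few reads, and in D all 3 libraries were high and close together. Ikzf2 encodes Helios, an Ikaros family transcription factor known from regulatory and self-reactive T cells. Its peak in intron 6 of 7 (chromosome 1, 69544126 to 69544705) measured 16.2, 9.16 and 9.63 rppm in D, against 0.780, 0.114 and 0.239 rppm in B (log2 difference 3.19 ± 0.17, limma adjusted p 2.54e-08). Mouse 1 was the highest D library at this site, and all 3 D libraries exceeded all 3 B libraries by a wide margin.

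Swap70, an actin-binding signalling protein, had a peak in intron 2 of 11 with 32.7, 22.7 and 23.7 rppm in D, against 2.34, 1.95 and 1.48 rppm in B (log2 difference 3.22 ± 0.16, limma adjusted p 1.64e-08). Ergic1, a protein that cycles between endoplasmic reticulum and Golgi, had an intergenic peak with 28.5, 17.3 and 19.6 rppm in D, against 1.0, 1.37 and 1.04 rppm in B (log2 difference 3.39 ± 0.19, limma adjusted p 2.54e-08). Both sites had reads in every B library and were far higher in every D library. Stk39, a kinase that regulates ion cotransporters, gave 13.1 ± 2.18 rppm in D and 0.565 ± 0.234 rppm in B at an intronic peak (log2 difference 3.17). At intronic peaks of Myo10, a myosin of filopodia, and Sik3, a salt-inducible kinase, the log2 differences were 3.10 and 3.0. Tnrc6a, a scaffold of microRNA silencing, and Gtsf1l had intergenic peaks with log2 differences of 3.02 and 2.99, and Ankdd1b, whose peak lies in an intron of Polk, had 3.02. The limma adjusted p of these 10 peaks ran from 5.61e-09 to 5.28e-08, and each call held in every alternative in which it was tested.

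**Figure D2:**
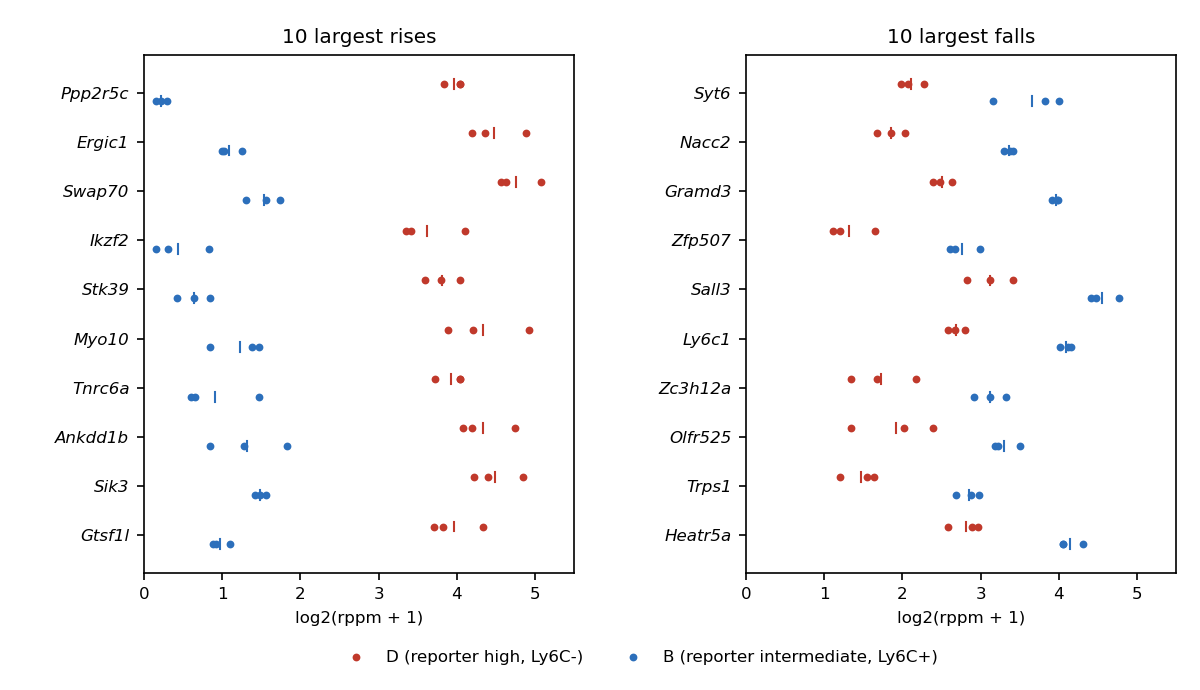
The 10 named peaks with the largest increases (left) and decreases (right) in D, 1 row per peak, labelled with the nearest gene. The horizontal axis is log2(rppm + 1), each point is 1 library (red D above blue B in each row), and vertical ticks are means over 3 libraries. No D point overlaps a B point in any row, which was a condition for choosing these peaks.

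The largest losses were smaller in size and again mostly distal. Syt6, a synaptotagmin, led with an intergenic peak 81.0 kb from the start (chromosome 3, 103493840 to 103494622), which measured 3.85, 3.20 and 2.96 rppm in D, against 13.1, 15.1 and 7.90 rppm in B (log2 difference -1.55 ± 0.15, limma adjusted p 1.75e-06). Mouse 3 had the lowest value of each group. Nacc2, a transcriptional repressor, had an intronic peak (chromosome 2, 26062067 to 26062896) with 3.08, 2.18 and 2.60 rppm in D, against 9.69, 9.39 and 8.86 rppm in B (log2 difference -1.52 ± 0.18, limma adjusted p 1.38e-05). Gramd3, a lipid-binding GRAM domain protein, had a peak in intron 1 (chromosome 18, 56440745 to 56441396) with 4.24, 5.24 and 4.58 rppm in D, against 14.9, 14.1 and 14.8 rppm in B (log2 difference -1.46 ± 0.14, limma adjusted p 2.3e-06). These peaks were chosen under the same conditions as the largest gains, so that no overlap between the groups was required. The B values of Gramd3 lay within 1 rppm of each other.

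Zc3h12a encodes Regnase-1, an RNase that degrades inflammatory transcripts and restrains T cell activation. An intergenic peak 10.7 kb from its start (chromosome 4, 125138220 to 125138868) measured 1.54, 2.18 and 3.53 rppm in D, against 7.68, 9.04 and 6.54 rppm in B (log2 difference -1.39 ± 0.20, limma adjusted p 0.000101). The other peaks of the 10 were near Zfp507, Sall3, Ly6c1, Olfr525, Trps1 and Heatr5a, with log2 differences of -1.44, -1.44, -1.41, -1.38, -1.38 and -1.33. The peak nearest Trps1, a GATA-type repressor, is 953 kb from its start, so that the gene name is only a position label there. At the other peaks assigned to Myo10, Syt6 and Trps1, calls went in both directions.

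Genes that restrain T cell activation carried the largest number of gains among the gene lists. Of 435 peaks near 50 such genes, 106 (24.4%) were called higher and 36 (8.28%) lower, against 9.97% and 8.41% of all peaks. By gene, 19 had only higher calls, 5 only lower calls, 13 both and 13 none, and the median over the 435 peaks was 0.03. Ctla4, the inhibitory receptor that competes with CD28, had 9 of 15 peaks higher. The leading one, in its last intron (chromosome 1, 60913269 to 60913747), measured 23.5, 23.4 and 22.2 rppm in D, against 2.90, 3.55 and 3.67 rppm in B (log2 difference 2.46 ± 0.14, limma adjusted p 2.54e-08). The 3 D libraries were nearly equal and several-fold above B. Ndrg1, known as an anergy factor in T cells, had 8 of 13 peaks higher, the leading one at 15.4, 17.9 and 15.0 rppm in D, against 2.23, 1.83 and 1.56 rppm in B (log2 difference 2.58 ± 0.15, limma adjusted p 3.81e-08). Rasa2, a Ras GTPase activating protein, had 5 of 13 peaks higher, with 6.16, 6.11 and 6.97 rppm in D, against 0.668, 0.458 and 0.718 rppm in B at the leading peak (log2 difference 2.20 ± 0.16, limma adjusted p 1.31e-07). Again no library of D came near one of B at either gene.

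Within this list, further genes were picked after their values were seen. All 7 peaks of Nt5e, which encodes the adenosine-producing enzyme CD73, were higher, the leading one with 29.7 ± 6.65 rppm in D and 12.9 ± 1.72 rppm in B (SD, n = 3 each; log2 difference 1.13). Of the inhibitory receptors, Lag3 had 3 of 5 peaks higher and 1 lower, and its promoter peak gave 9.48 ± 0.953 rppm in D and 2.75 ± 1.05 rppm in B (log2 difference 1.52). Pdcd1, encoding PD-1, had 3 of 6 peaks higher, with 11.0 ± 3.91 rppm in D and 3.68 ± 0.179 rppm in B at a site 1.15 kb from the start (log2 difference 1.32). Socs3, a brake on cytokine signalling, went the other way with 5 of 8 peaks lower. Its promoter peak measured 36.2, 58.0 and 55.9 rppm in D, against 75.7, 86.3 and 77.9 rppm in B (log2 difference -0.69 ± 0.09, limma adjusted p 6.36e-05). The lowest B library still stood above the highest D library at Socs3. Pag1, a membrane adaptor that recruits the inhibitory kinase Csk, had 6 of 23 peaks lower and 1 higher.

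Genes of regulatory T cells had the highest share of gains, although cells with the FoxP3 reporter had been gated out. Of 110 peaks near 20 of the 21 listed genes, 41 (37.3%) were called higher and 7 (6.36%) lower, with a median of 0.24. Of those 20 genes, 10 had only higher calls, 4 only lower calls, 1 both and 5 none. Ikzf2, Ctla4 and Nt5e had 9 of 11, 9 of 15 and 7 of 7 peaks higher, and 11 of the 21 genes are in another list too. Itgb8, the integrin beta 8 chain that helps release active TGF-beta, had 2 of 3 peaks higher. Its promoter peak (chromosome 12, 119237858 to 119239075), whose sequence is printed above, measured 8.09, 6.25 and 7.57 rppm in D, against 0.557, 0.801 and 0.279 rppm in B (log2 difference 2.43 ± 0.18, limma adjusted p 1.57e-07). B was near 0 in all 3 libraries and D was not. Of Il2ra, the high-affinity interleukin 2 receptor chain, 1 of 10 peaks was higher and 3 were lower. Summed over Foxp3, Il2ra, Ikzf2 and Ctla4, the level was 532 to 575 rppm in D and 417 to 436 rppm in B, and whether cells other than the gated ones have a part in this was not tested.

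Genes of follicular helper T cells, which help B cells in germinal centres, had 49 of 178 peaks higher (27.5%) and 7 lower (3.93%), with a median of 0.12, and 12 of the 18 genes are also in another list. By gene, 10 of 17 had only higher calls, 2 only lower, 4 both and 1 none. Icos, a costimulatory receptor these cells need, had 5 of 22 peaks higher. Its leading peak, 72.6 kb from the start (chromosome 1, 61050165 to 61050809), measured 10.8, 11.1 and 9.31 rppm in D, against 1.0, 1.72 and 1.12 rppm in B (log2 difference 2.33 ± 0.16, limma adjusted p 1.19e-07). Cd200, a surface glycoprotein induced on activated T cells, measured 13.5, 19.3 and 18.7 rppm in D, against 2.56, 2.98 and 2.75 rppm in B at a distal peak (log2 difference 2.26 ± 0.17, limma adjusted p 2.24e-07). Maf, a transcription factor of follicular helper cells and interleukin production, had 29.6, 20.8 and 24.9 rppm in D, against 13.5, 8.70 and 8.62 rppm in B at a peak 309 kb away (log2 difference 1.23 ± 0.11, limma adjusted p 8.12e-07). D was above B in every library at the 3 genes, with the smallest relative gap at Maf.

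Further follicular helper genes were picked after their values were seen. Cxcr5, the chemokine receptor for B cell follicles, had 24.4 ± 4.97 rppm in D and 10.3 ± 2.63 rppm in B at its promoter (log2 difference 1.18). Bcl6, the lineage-defining repressor, had 15.5 ± 3.60 rppm in D and 3.93 ± 0.663 rppm in B at an intergenic peak (log2 difference 1.73), with 2 of 10 peaks higher and 1 lower. Il21, the cytokine these cells secrete, had 7.20 ± 0.317 rppm in D and 1.56 ± 0.140 rppm in B at a peak 27.1 kb from its start (log2 difference 1.68), and Pou2af1, a coactivator, had 4 of 5 peaks higher. Means and SDs are over 3 libraries a group. The Cxcr5, Bcl6 and Il21 peaks were each the peak of the gene with the smallest p. D and B libraries did not overlap there, nor at 92.3% of all peaks called higher.

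For genes switched on through the T cell receptor, the share of peaks called higher was above the 9.97% of all peaks. The share called lower was not above the 8.41% of all peaks. Of 234 peaks near 29 of 30 listed genes, 44 (18.8%) were higher and 17 (7.26%) lower, with a median of 0.02. By gene, 11 had only higher calls, 6 only lower, 7 both and 5 none. Nfkbiz, an atypical NF-kB cofactor, had 7.70, 6.98 and 7.16 rppm in D, against 1.0, 1.37 and 0.838 rppm in B at its leading peak (log2 difference 2.01 ± 0.17, limma adjusted p 6.03e-07), yet 2 of its 9 peaks were higher and 2 lower. Nr4a2 and Nr4a3, the relatives of Nr4a1 and chosen after their values were seen, had 3 of 4 and 1 of 10 peaks higher. Their leading peaks measured 29.2 ± 2.55 rppm in D and 18.9 ± 2.99 rppm in B for Nr4a2 (log2 difference 0.61) and 37.6 ± 7.14 rppm in D and 21.9 ± 0.684 rppm in B for Nr4a3 (log2 difference 0.74). The leading peaks of the 3 Nr4a genes were sites already strong in B. The count of 1 of 10 at Nr4a3 is close to the 9.97% called higher over all peaks.

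Costimulatory receptors and ligands had 29 of 151 peaks higher (19.2%) and 9 lower (5.96%), with a median of 0.06. Tnfsf8, the CD30 ligand, had 3.85, 3.78 and 3.85 rppm in D, against 0.445, 0.343 and 0.319 rppm in B at its leading peak (log2 difference 1.82 ± 0.17, limma adjusted p 1.5e-06), and Tnfsf11, which encodes RANKL, had 10.8, 8.0 and 10.7 rppm in D, against 3.23, 1.49 and 2.99 rppm in B at an intronic peak (log2 difference 1.63 ± 0.16, limma adjusted p 2.09e-06). Both had every D library above every B library. The Tnfsf8 values rested on few reads in population D replicate 1, where 1 read is worth 0.385 rppm. Among TNF receptor family members, chosen after their values were seen, Tnfrsf9 (4-1BB) had 5 of 7 peaks higher and Tnfrsf4 (OX40) had its promoter peak higher and its only other peak lower. The Tnfrsf4 promoter peak averaged 15.2 ± 1.36 rppm in D and 6.16 ± 0.300 rppm in B (SD, n = 3 each; log2 difference 1.17). Cd28 itself had 4 peaks higher and 3 lower among 19.

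Feedback regulators of Ras and MAP kinases had 37 of 170 peaks higher (21.8%) and 8 lower (4.71%), with a median of 0.04. Dusp1, a phosphatase that switches off MAP kinases, measured 38.1, 29.7 and 30.3 rppm in D, against 5.68, 6.41 and 6.22 rppm in B at a peak 23.5 kb from its start (chromosome 17, 26531453 to 26532570; log2 difference 2.24 ± 0.13, limma adjusted p 3.02e-08). Dusp4, a nuclear member of the same family, measured 8.86, 7.13 and 10.3 rppm in D, against 0.445, 1.15 and 0.439 rppm in B at its leading peak (log2 difference 2.56 ± 0.19, limma adjusted p 2.54e-07). The Dusp1 site was open in B and much stronger in D, whereas the Dusp4 site was near 0 in B. Dusp2 and Dusp4 had 4 of 13 and 4 of 10 peaks higher and none lower. Dusp5, Dusp6 and Dusp10 had 1 of 13, 2 of 20 and 2 of 16 peaks lower and none higher. These lower counts are close to the 8.41% called lower over all peaks. Spry1, a Sprouty feedback inhibitor, had 3 of 4 peaks higher.

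Proximal T cell receptor signalling genes had 37 of 346 peaks higher (10.7%) and 41 lower (11.8%), both close to the shares of all peaks, with a median of -0.08. The balance turned to more higher than lower without the mouse block (27 higher and 21 lower), without population B replicate 1 (32 and 25), 2 (34 and 22) or 3 (30 and 29), without population D replicate 1 (35 and 32) or 2 (31 and 27), without mouse 2 (29 and 19) or mouse 3 (19 and 15), with only B and D in the model (32 and 26), with thinned libraries (23 and 16), with median-of-ratios scaling (40 and 38) and with edgeR (43 and 36). Prkcq, encoding protein kinase C theta, had 10.4, 14.1 and 10.3 rppm in D, against 1.56, 2.52 and 2.04 rppm in B at its leading peak (log2 difference 2.05 ± 0.15, limma adjusted p 1.71e-07), although 4 of its 38 peaks were higher and 6 lower. Fyn, a Src family kinase, had 13.9, 16.7 and 17.7 rppm in D, against 3.34, 1.60 and 3.19 rppm in B at an intronic peak (log2 difference 2.23 ± 0.18, limma adjusted p 3.76e-07) and 9 of 24 peaks higher. A peak assigned to the Tec family kinase Txk, in an intron of the neighbouring gene Tec, had 9.29 ± 1.63 rppm in D and 2.01 ± 0.550 rppm in B (log2 difference 1.78), and of 16 Txk peaks 3 were higher and 4 lower. D exceeded B in each library at all 3 sites, which were chosen for the smallest p of each gene.

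Cytokine receptors, Jak kinases and Stats had 33 of 294 peaks higher (11.2%) and 42 lower (14.3%), with a median of -0.07. Over all peaks, 9.97% were higher and 8.41% lower, so the higher share was close to that of all peaks. By gene, 7 had only higher calls, 7 only lower, 12 both and 10 none. With edgeR on recovered reads 52 were higher and 44 lower, and without mouse 3 there were 20 of each. Jak2, a kinase of cytokine receptors, had 7 of 9 peaks higher. The leading one (chromosome 19, 29271038 to 29271587) measured 10.8, 11.5 and 10.3 rppm in D, against 0.557, 0.801 and 0.599 rppm in B (log2 difference 2.85 ± 0.16, limma adjusted p 2.71e-08), with all B libraries near 0. Tgfbr2, the TGF-beta receptor chain, had 37.7, 39.6 and 35.4 rppm in D, against 12.1, 14.0 and 11.1 rppm in B at its leading peak (log2 difference 1.53 ± 0.10, limma adjusted p 7.76e-08), although 3 of its 22 peaks were lower and 1 higher. Il2rb, a chain shared by the receptors for interleukins 2 and 15, had 28.1, 25.7 and 29.8 rppm in D, against 13.7, 11.9 and 13.0 rppm in B at its promoter (log2 difference 1.06 ± 0.10, limma adjusted p 1.71e-06). Il7r, the receptor chain for the survival cytokine of naive T cells and chosen after its values were seen, had 9 of 19 peaks lower and 1 higher. The Il7r peak with the smallest p, 51.1 kb from the start and within the neighbouring gene Spef2, measured 27.0, 35.3 and 34.2 rppm in D, against 46.4, 66.6 and 53.0 rppm in B (log2 difference -0.76 ± 0.09, limma adjusted p 1.54e-05). The groups did not overlap there, although the B libraries were widely spread.

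Helper lineage transcription factors had 34 of 182 peaks higher (18.7%) and 16 lower (8.79%), with a median of 0.00. Over all peaks, 9.97% were higher and 8.41% lower, so the lower share was close to that of all peaks. Gfi1, a repressor known from activated T cells, had 6 of 11 peaks higher, the leading one with 33.9, 27.3 and 24.1 rppm in D, against 6.35, 10.2 and 8.06 rppm in B (log2 difference 1.69 ± 0.15, limma adjusted p 9.9e-07). Ahr, the aryl hydrocarbon receptor, had 4.62, 5.09 and 5.34 rppm in D, against 0.780, 0.343 and 0.758 rppm in B at a distal peak (log2 difference 1.90 ± 0.19, limma adjusted p 2.86e-06). Gfi1 was already accessible in B, and Ahr was near 0. Gata3, the factor of type 2 helper cells, had 4 of 25 peaks higher, and Prdm1, which encodes the repressor Blimp-1, had 4 of 9 peaks lower, both chosen after their values were seen. The Prdm1 promoter peak averaged 38.6 ± 1.37 rppm in D and 48.7 ± 2.01 rppm in B (SD, n = 3 each; log2 difference -0.33 ± 0.08, limma adjusted p 0.0088), a call lost without the mouse block (adjusted p 0.0575), when the libraries were thinned to equal reads, and without population B replicate 3 or mouse 3.

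Effector and memory genes had 22 of 132 peaks higher (16.7%) and 14 lower (10.6%), against 9.97% and 8.41% of all peaks. Their median was -0.02 and was at or above 0 under both other scalings. By gene, 10 had only higher calls, 4 only lower, 4 both and 12 none. Ifng, encoding interferon gamma, had 4 of 7 peaks higher, the leading one 19.4 kb from its start with 13.5, 11.6 and 11.9 rppm in D, against 3.01, 3.09 and 3.47 rppm in B (log2 difference 1.67 ± 0.15, limma adjusted p 9.78e-07). S100a6, a calcium-binding protein of memory cells, had 3.85, 3.64 and 4.31 rppm in D, against 0.780, 0.343 and 0.638 rppm in B at an intergenic peak (log2 difference 1.64 ± 0.17, limma adjusted p 5.02e-06). All D libraries lay above all B libraries at both sites, but the S100a6 values rested on few reads in population D replicate 1. S100a6 had 1 of 4 peaks higher and none lower. Crip1 had 2 of 3 peaks lower and none higher, and Itga4 had 3 of 17 lower and 2 higher. Lgals1, Vim and Tnf each had 1 peak lower and none higher.

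Transcription factors of the AP-1, NFAT and NF-kB families had 21 of 164 peaks higher (12.8%) and 13 lower (7.93%), close to the shares of all peaks, with a median of -0.05. With peaks under a mean of 5 rppm left out, 12 were higher and 13 lower. Nfkb1, the NF-kB p50 precursor, had 7 of 15 peaks higher, the leading one with 16.9, 13.4 and 16.6 rppm in D, against 5.68, 3.89 and 5.11 rppm in B (log2 difference 1.50 ± 0.14, limma adjusted p 1.22e-06). Fosb, an AP-1 subunit, had 10.0, 6.54 and 8.30 rppm in D, against 2.56, 2.86 and 3.07 rppm in B at an intergenic peak (log2 difference 1.26 ± 0.17, limma adjusted p 4.24e-05). Nfatc1, a calcium-dependent activator, had 3 peaks higher and 2 lower among 19, and the peak with the smallest p, inside the neighbouring gene Atp9b, was lower with 46.2, 31.9 and 33.6 rppm in D, against 62.7, 57.5 and 53.5 rppm in B (log2 difference -0.64 ± 0.09, limma adjusted p 0.000115). The 2 higher sites were weak in B, and the lower site was among the strong ones.

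Genes of thymocytes and recent thymic emigrants had 52 of 210 peaks higher (24.8%) and 17 lower (8.10%), against 9.97% and 8.41% of all peaks. Their median was within 0.03 of 0 and changed sign with quantile normalization. Bcl2l11 encodes Bim, a pro-apoptotic protein of negative selection, and had 8 of 19 peaks higher and 2 lower. The leading Bcl2l11 peak, inside the neighbouring gene Acoxl, measured 21.2, 17.7 and 16.4 rppm in D, against 4.79, 2.86 and 2.39 rppm in B (log2 difference 2.19 ± 0.16, limma adjusted p 2.12e-07). Tox, an HMG-box factor of CD4 lineage development and of exhaustion, had 10 of 28 peaks higher and 2 lower, the leading one with 6.55, 7.42 and 4.91 rppm in D, against 1.23, 1.60 and 1.52 rppm in B (log2 difference 1.56 ± 0.16, limma adjusted p 4.78e-06). Cd24a, a surface marker of young T cells chosen after its values were seen, had all 4 peaks higher, with 17.2 ± 3.89 rppm in D and 8.45 ± 0.512 rppm in B at the promoter (SD, n = 3 each; log2 difference 0.92). Themis, a T cell receptor signalling regulator of the thymus, had 4 of 16 peaks lower and none higher.

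Losses outnumbered gains in other lists. Genes of naive homing and quiescence had 67 of 510 peaks lower (13.1%) and 39 higher (7.65%), with a median of -0.08, and this balance was 32 higher and 31 lower without mouse 2. Bach2, a repressor that holds T cells in the naive state, had 9 peaks lower and 7 higher among 54. Its leading peak (chromosome 4, 32290833 to 32292063) is among the strongest named, with 47.4, 46.8 and 44.1 rppm in D, against 77.7, 84.1 and 75.6 rppm in B (log2 difference -0.77 ± 0.07, limma adjusted p 1.23e-06). Every B library was well above every D library. Klf2, which drives exit from tissues through S1pr1, had 8 of 16 peaks lower and 2 higher, and its leading peak, chosen after its values were seen, averaged 7.93 ± 0.915 rppm in D and 14.3 ± 1.18 rppm in B (SD, n = 3 each; log2 difference -0.78).

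At Foxp1 and Klf3, of the same list, the leading peaks were higher in D, while the medians over all their peaks were -0.01 and -0.11. Of all peaks, 9.97% were higher and 8.41% lower. Foxp1, a forkhead factor that keeps T cells quiescent, had 10 peaks higher and 6 lower among 83, the leading one in intron 1 with 11.6, 8.44 and 8.63 rppm in D, against 0.668, 1.26 and 0.758 rppm in B (log2 difference 2.48 ± 0.18, limma adjusted p 1.9e-07). Klf3, a relative of Klf2, had 7.32, 7.85 and 8.19 rppm in D, against 0.891, 1.26 and 1.60 rppm in B at a distal peak (log2 difference 1.98 ± 0.21, limma adjusted p 4.2e-06), but 1 of its 16 peaks was higher and 1 lower. Both leading sites were weak in B and open in every D library. Of the T cell identity factors, Tcf7 and Satb1 had 4 of 17 and 4 of 29 peaks lower and none higher, of which 1 each was called without the block. Lef1 had 4 peaks higher and 3 lower among 53.

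Type I interferon response genes had 15 of 99 peaks lower (15.2%) and 1 higher (1.01%), with a median of -0.14. Without the block 6 were lower and 1 higher. By gene, 10 of 32 had only lower calls, 1 (Gbp2) only a higher one and 21 none. Oas3, an antiviral oligoadenylate synthetase, had 38.9, 32.9 and 35.5 rppm in D, against 62.2, 49.1 and 51.2 rppm in B at an intronic peak (log2 difference -0.58 ± 0.08, limma adjusted p 4.18e-05). Ifit3, an interferon-induced translation inhibitor, had 2.69, 3.78 and 4.64 rppm in D, against 6.79, 5.49 and 8.30 rppm in B at a peak inside Ifit2 (log2 difference -0.75 ± 0.16, limma adjusted p 0.00343), and Oasl2 had 1.16, 1.89 and 2.52 rppm in D, against 3.12, 4.35 and 3.51 rppm in B (log2 difference -0.73 ± 0.16, limma adjusted p 0.00433). The groups did not overlap at these peaks, but the Ifit3 and Oasl2 calls rested on few reads. The Ifit3 call was lost with libraries thinned to equal reads and without mouse 3, and the Oasl2 call with thinned libraries and without mouse 2. Oasl2 had 5 of 6 peaks lower in all.

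The Ly6 cluster on chromosome 15 had 15 of 43 peaks lower (34.9%) and none higher, with a median of -0.28, and 6 were lower without the block. The losses sat at 3 of the 10 genes with peaks, Ly6c1, Ly6a and Ly6e, and the other 7 genes had no call. Ly6a, which encodes Sca-1, had 4 of 8 peaks lower. Its promoter peak (chromosome 15, 74997772 to 74998137) measured 3.46, 2.62 and 4.18 rppm in D, against 6.46, 8.81 and 8.14 rppm in B (log2 difference -1.0 ± 0.17, limma adjusted p 0.000524), and the call was lost with thinned libraries. Ly6e, an interferon-inducible family member, had 6 of 12 peaks lower, the leading one with 5.39, 6.40 and 10.1 rppm in D, against 13.4, 13.5 and 14.1 rppm in B (log2 difference -0.86 ± 0.15, limma adjusted p 0.000574). Every B library exceeded every D library at both peaks. Ly6C protein was a sort criterion, so Ly6c1 is not independent of how the groups were made.

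Without the mouse block, the counts were 82 higher and 18 lower for the negative regulators, 31 and 6 for regulatory T cells, 41 and 2 for follicular helper T cells, and 29 and 34 for naive homing and quiescence.

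Markers of other cell types were also examined. Myeloid and dendritic genes had 10 of 45 peaks lower (22.2%) and 2 higher (4.44%), with a median of -0.15, for example 7.91 ± 0.617 rppm in D and 14.1 ± 1.40 rppm in B at an intron of Itgam (log2 difference -0.76 ± 0.12, limma adjusted p 0.000191). A peak of Flt3 and a peak assigned to Mpeg1 inside Dtx4 had log2 differences of -0.86 and -1.39. Of 6 myeloid markers 4 were analysed here, and their summed level was 59.7 to 72.7 rppm in D and 87.2 to 88.8 rppm in B, and its part in the results was not tested. CD8 T and NK genes had 13 of 64 peaks lower (20.3%) and 6 higher (9.38%), with a median of -0.12. Over all peaks, 8.41% were lower and 9.97% higher. The peak assigned to Prf1, inside Pald1, had 8.76 ± 1.51 rppm in D and 18.2 ± 2.10 rppm in B (log2 difference -0.98), Klrk1 had 7.09 ± 1.97 rppm in D and 14.8 ± 2.91 rppm in B (-0.98), and a Runx3 peak was higher with 5.73 ± 1.69 rppm in D and 1.66 ± 0.273 rppm in B (1.31), while 2 of 17 Runx3 peaks were higher and 4 lower. The CD8 and NK markers, 4 of 6 analysed here, summed to 367 to 472 rppm in D and 423 to 443 rppm in B, which overlap.

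B cell genes had 4 of 33 peaks higher (12.1%) and 1 lower (3.03%), against 9.97% and 8.41% of all peaks. Without population D replicate 3 there were 2 higher and 3 lower, and with thinned libraries 1 higher and 2 lower. The named ones were H2-Aa, H2-Eb1 and Btk with log2 differences of 1.33, 0.50 and 0.50. The lower call was at Cd74, which had 1 of 5 peaks higher and 1 lower. The H2-Eb1 call was lost with thinned libraries and without mouse 2 or mouse 3, and the Btk call with thinned libraries and without population B replicate 1 or 3, population D replicate 3 or mouse 3. B cell markers, 3 of 6 analysed here, summed to 35.8 to 53.1 rppm in D and 46.8 to 51.8 rppm in B. Ribosomal protein genes had 13 of 141 peaks higher (9.22%) and 6 lower (4.26%), with 41 of 46 genes lacking any call, and none of their 44 promoter peaks was called. Without population D replicate 3, 8 were higher and 8 lower. Their leading peaks, near Rps24, Rplp1 and Rpl34 with log2 differences of 1.39, 1.44 and 0.61, lie 289 kb, 199 kb and 18.9 kb from the start sites.

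**Figure D3:**
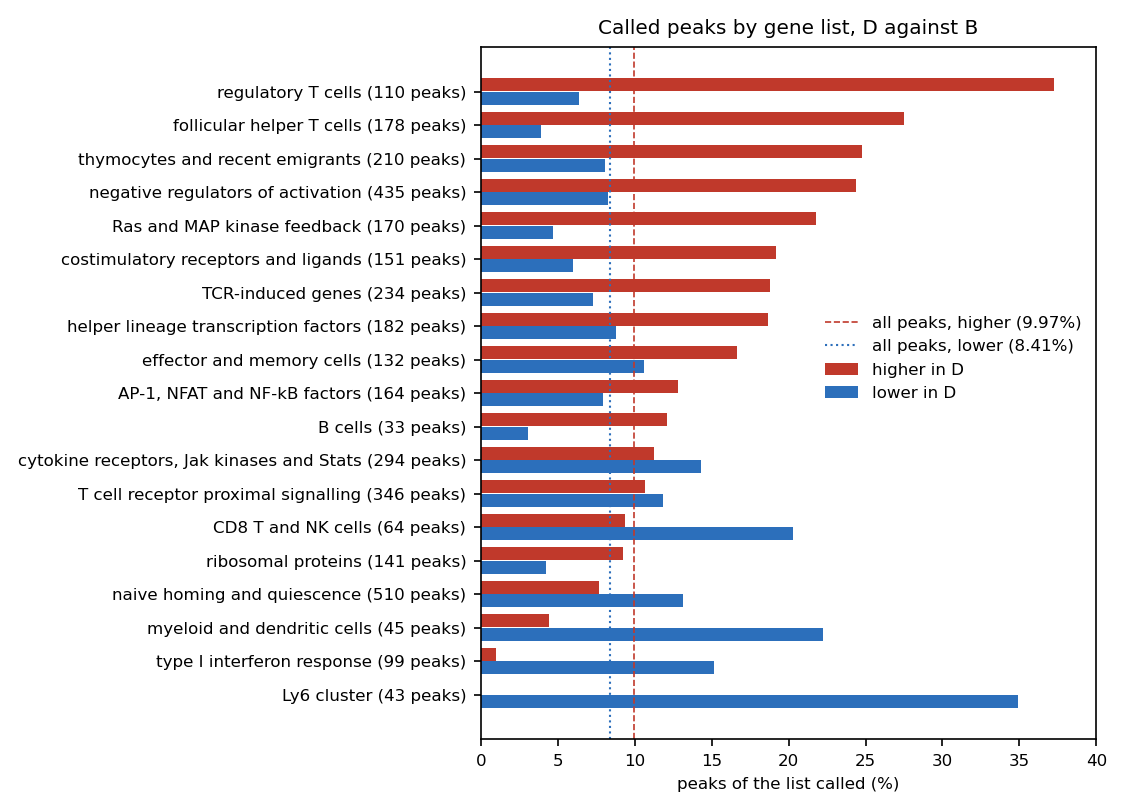
Share of the peaks of each of 19 gene lists that were called higher (red) or lower (blue) in D against B, in percent, with the number of peaks in parentheses. The red dashed and blue dotted lines are the shares over all 45508 peaks, 9.97% and 8.41%; the regulatory T cell list reaches 37.3% higher and the Ly6 cluster 34.9% lower.

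Some single genes changed at many of their peaks. Rasa1, a Ras GTPase activating protein, had 10 of 16 peaks higher and none lower, and Tank, an adaptor of TRAF signalling, had 10 of 19 higher. Inpp4b, a lipid phosphatase acting on PI3 kinase products, had 10 of 38 higher, the leading one with 36.6, 39.7 and 41.8 rppm in D, against 20.7, 22.7 and 20.8 rppm in B (log2 difference 0.85 ± 0.09, limma adjusted p 5.38e-06). Leading peaks of Rasa1 and Tank averaged 8.62 ± 1.12 rppm in D and 1.36 ± 0.900 rppm in B and 12.5 ± 1.90 rppm in D and 2.99 ± 0.564 rppm in B (SD, n = 3 each). On the lower side, all 11 peaks of Pik3r5, a regulatory subunit of PI3 kinase gamma, were called, with log2 differences of -1.15 to -0.28. The named Pik3r5 peak in intron 1 (chromosome 11, 68435450 to 68435960) measured 10.8, 7.56 and 11.2 rppm in D, against 19.7, 19.8 and 20.6 rppm in B (log2 difference -0.97 ± 0.12, limma adjusted p 2.27e-05). Without the block, 10 of the 11 were called.

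Wwox, a large gene at a fragile site that encodes an oxidoreductase, had 16 of 31 peaks lower and 1 higher. Its leading peak, in intron 8 of 8 (chromosome 8, 114869089 to 114869908), measured 21.6, 15.9 and 17.8 rppm in D, against 48.4, 43.8 and 42.4 rppm in B (log2 difference -1.25 ± 0.08, limma adjusted p 7.64e-08). Gramd3 had 13 of 23 lower and none higher, Chd7, a chromatin remodeller, 13 of 39 lower and 1 higher, and Sgms1, a sphingomyelin synthase, 10 of 41 lower and 1 higher. Their leading peaks at Chd7 and Sgms1 had log2 differences of -0.60 and -0.81. Peaks near 1 gene share a locus and are not independent measurements. The same holds for neighbouring genes counted in separate lists, such as Cd28, Ctla4 and Icos on chromosome 1. The peaks named for Ergic1 and Dusp1 are also neighbours, on chromosome 17.

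The calls lay away from start sites. Within 1 kb of a start site, 458 of 12206 peaks (3.75%) were higher and 379 (3.11%) lower, whereas in introns 2105 of 16401 (12.8%) were higher and 1701 (10.4%) lower. Intergenic peaks were called higher in 12.1% and lower in 10.6% of 14700 cases, and peaks in exons, UTRs or transcript ends in 8.54% and 8.22% of 2190. Promoter peaks made up 10.1% of the higher and 9.91% of the lower calls, and 30.6% of the peaks not called. Without the block these shares were 8.37% and 5.50%. The share called higher was 8.78% at 1 to 10 kb, 12.5% at 10 to 50 kb, 16.4% at 50 to 100 kb and 18.5% beyond 100 kb. The share called lower was 8.81%, 10.6%, 12.3% and 11.7% over the same distances. Promoter peaks were also the strongest, with medians of 37.1 rppm in D and 38.2 rppm in B, against 7.43 rppm in D and 7.24 rppm in B for introns, and the share called higher was 7.67% of peaks at 5 to 10 rppm in A, 6.74% at 10 to 20 rppm and 1.99% at 20 rppm and over. The share called lower did not fall in this way, with 8.15%, 13.7% and 9.31% over the same levels. No test was run on these shares, because peaks are not independent.

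**Figure D4:**
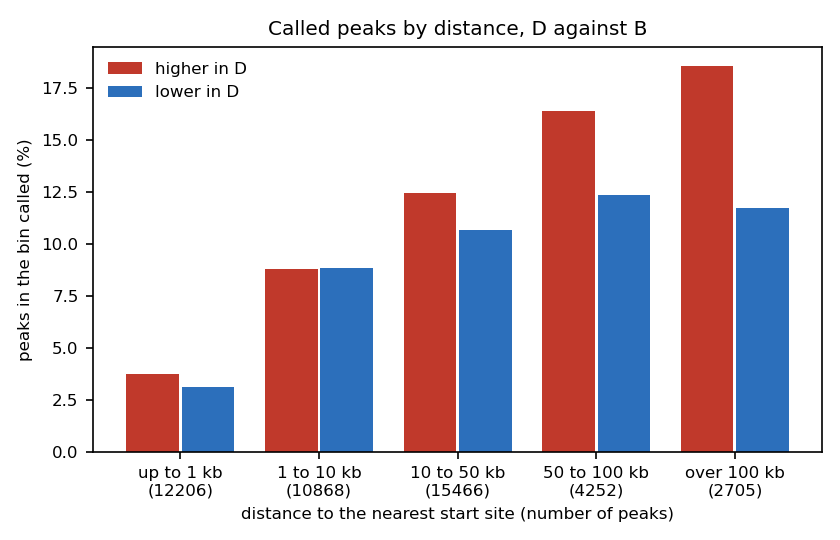
Percent of peaks called higher (red) or lower (blue) in D against B, by distance to the nearest start site, with the number of peaks per bin in parentheses. The share called higher is 3.75% within 1 kb and 18.5% beyond 100 kb, and the share called lower is lowest within 1 kb and levels off beyond 50 kb.

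A few promoters did change strongly. Prr5l, which binds the kinase complex mTORC2, had a peak 0.525 kb from a start site (chromosome 2, 101796422 to 101797943) with 11.6, 14.8 and 14.4 rppm in D, against 1.23, 0.572 and 0.878 rppm in B (log2 difference 2.95 ± 0.18, limma adjusted p 4.01e-08). Sh3gl3, encoding endophilin A3, had 8.47, 8.87 and 9.77 rppm in D, against 1.67, 0.572 and 1.04 rppm in B (chromosome 7, 82174544 to 82175532; log2 difference 2.29 ± 0.19, limma adjusted p 4.78e-07). Together with Itgb8 these were near 0 in B and open in every D library. Ttc39c and Rab11fip3, an effector of the recycling GTPase Rab11, had log2 differences of 2.24 and 1.92. Promoter peaks that lost most were those of Gramd3, Prss12, Ly6a, Tmem37 and Atp6v0d2, at -1.10, -1.01, -1.0, -0.99 and -0.90. All promoter peaks named here were chosen among called peaks with no overlap between the groups. Tmem37 (chromosome 1, 120073087 to 120074293) measured 1.93, 3.35 and 4.96 rppm in D, against 7.46, 8.01 and 6.86 rppm in B (log2 difference -0.99 ± 0.21, limma adjusted p 0.00283), with the 3 D libraries below all B libraries but spread over a wider range.

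Motifs were counted in 8615 RefSeq promoter windows of 250 bases that had at least 125 bases inside a promoter peak, 281 of them under a higher and 239 under a lower peak. Both strands were searched, and matches of different motifs were counted whether or not they overlapped, as the KLF and T-box letters can. The AP-1 letters TGANTCA were in 8.54% of the higher windows, 3.77% of the lower and 3.82% of all windows. The EGR letters GCGTGGG were in 11.7%, 7.11% and 7.67%, and the FOX letters TGTTTAC in 4.27%, 3.35% and 1.94%. The STAT letters TTCNNNGAA went the other way, in 2.14% of the higher, 8.79% of the lower and 5.65% of all windows. NFAT (TGGAAA) was in 15.7%, 16.7% and 13.8%, the E protein letters CAGCTG in 14.9%, 16.7% and 11.0%, and NR4A (AAGGTCA) in 3.20%, 1.26% and 2.39%. The shares in higher, lower and all windows were 4.63%, 4.60% and 3.18% for RUNX (TGTGGTT), 6.41%, 10.0% and 7.64% for ETS (AGGAAGT), and 8.54%, 6.69% and 7.25% for KLF (GGGTGTG). They were 3.20%, 2.93% and 3.16% for TCF/LEF (CTTTGAA), 3.91%, 4.18% and 2.67% for T-box (GGTGTGA), and 0.712%, 2.09% and 1.44% for the letters AGATAAG of the GATA family. For the longer NF-kB and IRF motifs, given by name, they were 6.41%, 4.60% and 4.86%, and 1.78%, 5.02% and 2.66%. The AP-1 count rests on 24 higher windows and the STAT count on 6, and the median GC content was 62.0% in higher, 58.4% in lower and 60.4% in all windows. These are descriptions of letters in promoters, and most called peaks lie elsewhere.

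Population C, which has the Ly6C status of D and the reporter level of B, lay closer to B. Peaks called higher in D against B had medians of 3.82 rppm in A, 4.25 in B, 5.26 in C and 8.76 in D. Peaks called lower had 14.0 in A, 13.9 in B, 12.7 in C and 9.20 in D. D against C gave 5166 calls (11.4%), 3104 higher (6.82%) and 2062 lower (4.53%). C against B gave 88 calls (0.193%), 71 higher (0.156%) and 17 lower (0.0374%). The median log2 difference of the peaks higher in D against B was 0.55 in D minus C and 0.21 in C minus B, and that of the lower peaks was -0.37 and -0.12. These contrasts share libraries with D against B, so the values are set side by side only.

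At single sites the steps were unequal. Ikzf2 had 0.109 and 0.101 rppm in A, 0.378 ± 0.354 in B, 2.0 ± 0.311 in C and 11.7 ± 3.92 in D (SD, n = 3 each for B, C and D), with log2 differences of 2.04 in D minus C and 1.15 in C minus B. Ctla4 had 2.17 and 3.22 rppm in A, 3.37 ± 0.417 in B, 6.49 ± 0.202 in C and 23.0 ± 0.727 in D, with 1.68 in D minus C and 0.78 in C minus B. Dusp1 had 3.92 and 4.73 rppm in A, 6.10 ± 0.380 in B, 9.78 ± 0.528 in C and 32.7 ± 4.71 in D, with 1.64 in D minus C and 0.60 in C minus B. At these genes C lay between B and D, nearer to B. The difference of C from B passed the threshold at the Ikzf2, Ctla4 and Icos peaks (limma adjusted p 0.0156, 0.0303 and 0.0384), which are among the 88 calls, and not at Dusp1 (0.0797). Ly6c1 had 21.0 and 19.6 rppm in A, 16.1 ± 0.882 in B, 11.0 ± 1.03 in C and 5.46 ± 0.482 in D, with -0.89 in D minus C and -0.51 in C minus B. There C lay about midway in rppm and nearer to B on the log2 scale. Bach2 had 83.9 and 79.7 rppm in A, 79.1 ± 4.45 in B, 73.8 ± 5.90 in C and 46.1 ± 1.74 in D, with -0.67 in D minus C and -0.10 in C minus B, and Syt6 had 12.3 and 7.05 rppm in A, 12.1 ± 3.73 in B, 10.2 ± 2.54 in C and 3.34 ± 0.462 in D, with -1.35 in D minus C and -0.20 in C minus B. At Bach2 and Syt6 every D library was below every library of A, B and C. The Tnfrsf4 promoter peak differed in its steps, with 4.02 and 5.44 rppm in A, 6.16 ± 0.300 in B, 12.6 ± 0.669 in C and 15.2 ± 1.36 in D and differences of 0.25 in D minus C and 0.93 in C minus B.

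**Figure D5:**
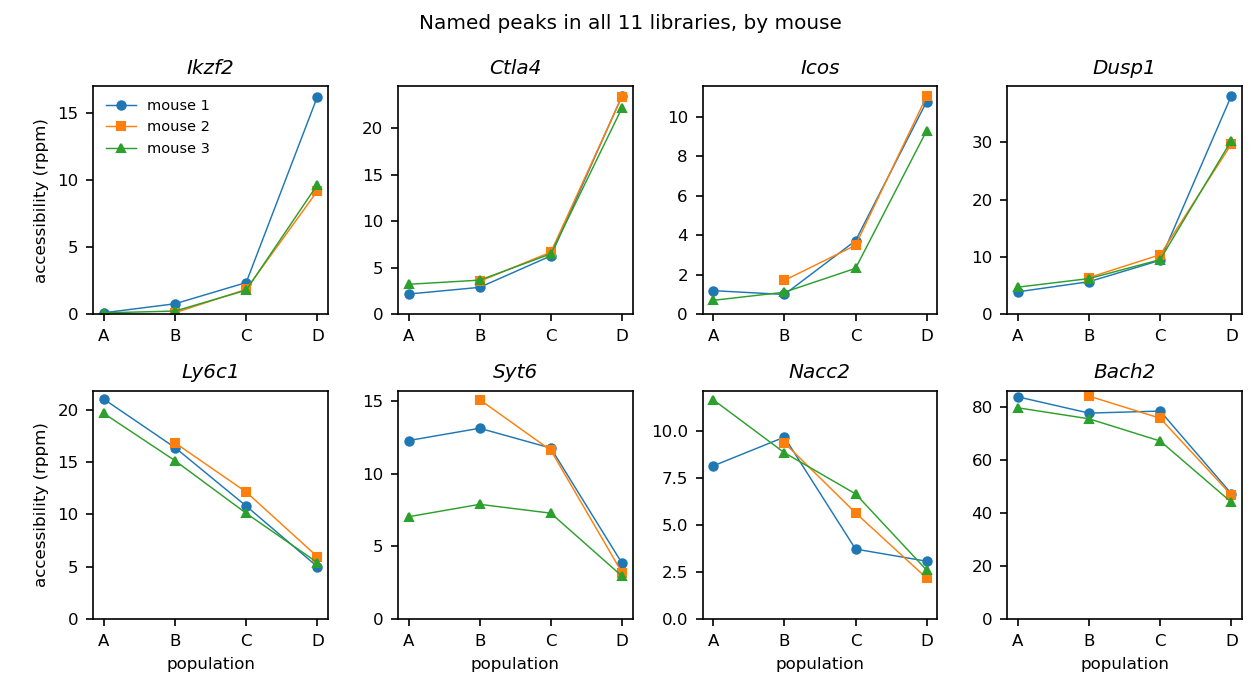
Accessibility in rppm (vertical axis, starting at 0) of 8 named peaks in populations A, B, C and D (horizontal axis), 1 line per mouse; mouse 2 has no A library. Ikzf2, Ctla4, Icos and Dusp1 have a higher mean in C than in B and the highest in D, Ly6c1 and Nacc2 are lower in C than in B and lowest in D, and Syt6 and Bach2 are lowest in D in every mouse.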

How the data were processed

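ATAC-seq was measured in 11 libraries of sorted naive CD4 T cells. The deposited values are RPM, named rppm per the file headers; the denominator, the read filters and whether libraries were pooled for peak calling are not given in the sources used here. The submitters' processing notes name mm10, Bowtie and MACS2, without versions. The authors' table gives each peak's position, annotation and nearest gene, and the nearest gene may not be the regulated one. Entrez identifiers of 45447 peaks (99.9%) were found in the RefSeq annotation, and 15 peaks had no gene.

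Log2(rppm + 1) values were fitted in limma 3.58.1 (R 4.3.3) with a mean per population, the mouse as a block, all 11 libraries and a variance trend. P-values are two-sided and adjusted over 45508 peaks. Differences are given ± SE and means ± SD. The p-values rest on the spread that is left after population and mouse are fitted, pooled over all 11 libraries. They cover only these 3 mice. The mouse is given by the labels. Deviations from population means correlated at 0.18 to 0.56 in 15 same-mouse pairs (0.28 to 0.39 for D with B) and at -0.43 to 0.20 in 30 other pairs. Deviations cancel out within a population, so positive same-mouse pairs push the other pairs down. Replicate 3 was also the deepest library of B, C and D, so mouse and depth cannot be told apart in these correlations.

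Every value was a whole multiple of the value of 1 read (100% within 0.0006 rppm), so reads were recovered for an edgeR 4.0.16 quasi-likelihood test, which called 6696 peaks higher and 3822 lower. Reads carry no molecular identifiers, so depth covers counting error only. Other alternatives were pseudocounts of 0.25 and 5 rppm, leaving out peaks with a mean under 5 rppm, median-of-ratios and quantile scaling, robust moderation, only B and D, thinning to the shallowest library, and leaving out each library or mouse. The fits were tested on simulated data.

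Named peaks were called peaks with no overlap, the same sign in each mouse, 5 rppm or more on average in the higher group and a proper gene symbol, 1 per gene: the 10 with the largest change each way, the 5 each way within 1 kb of a start site, up to 3 genes with the smallest p per list (without the overlap and level conditions), the 5 genes with the most calls each way, and the sort and gate genes. Genes can be in several of the 19 lists. Choice by the smallest p favours peaks without overlap, so a lack of overlap at such peaks is no added support. It was found at 92.3% of all higher and 83.9% of all lower calls. The comparison, lists and rule were chosen with earlier results of these data known.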

Additional observations from a re-analysis of the deposited data

How the results depend on the processing

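Fitted without the replicate block, that is without pairing by mouse, 3260 peaks were higher and 1746 lower in D, all of them also called with it. The percentage within 1 kb of a start site was then 8.37% of higher and 5.50% of lower calls. Lower calls numbered 2221 with only B and D in the model, 1329 after thinning to equal reads, 1787 without mouse 2 and 1522 without mouse 3. Higher calls numbered 2450 with a minimum mean of 5 rppm, 2437 after thinning and 2493 without mouse 3. Leaving out 1 library at a time gave 3314 to 4615 higher and 2255 to 3951 lower calls. Other pseudocounts, scalings, robust moderation and edgeR on recovered reads kept both counts within 1.5 times. The median over all peaks was -0.04, against -0.02 with median-of-ratios scaling and -0.03 with quantile normalization. Of 88 named peaks, 86 were called, 78 in all 24 alternatives that tested them, and none reversed. Leaving out A and C libraries and counting motifs in promoter windows were chosen after seeing the data. Motifs in central windows of the peaks were not run, as no genome was at hand. Depth limits peaks under about 5 rppm most, since 1 read is worth 0.385 rppm in population D replicate 1.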
